A study of Mus musculus with 26 samples.

Results

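In fully-grown germinal vesicle (GV) oocytes of the mouse, 73 transcripts had a read in every oocyte with a non-surrounded nucleolus (NSN) and no read in most oocytes with a surrounded nucleolus (SN). They were chosen by their counts alone. To belong to the set, a transcript needed a count in each of the 9 NSN oocytes, and 10 or more of the 16 SN oocytes had to be at 0. Of the 38540 transcripts counted, 75 met this rule, and 2 of them were left out. The choice therefore rests on the contrast between NSN and SN oocytes, and the NSN and SN values of the set are given as a description, and no test of that contrast is read as support for the set.

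The oocytes came from 2 mice, C and D, both wildtype, of the strain C57Bl6/Babr and 12 weeks old, and no treatment separated the groups. Each oocyte was freed of cumulus cells, stained with Hoechst and scored under the microscope: no ring around the nucleolus gave NSN, a partial ring gave intermediate (Inter), and a full ring gave SN. The study had dropped libraries with too few reads, and 2 oocytes as outliers by clustering. Of the oocytes with counts here, 5 NSN and 9 SN oocytes were of mouse C. Mouse D had 4 NSN and 7 SN oocytes and the only Inter oocyte here, D-15. Each library is the polyadenylated RNA of 1 oocyte, so the oocyte is the unit of replication, and only 2 animals stand behind all of them.

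A growing oocyte transcribes heavily and stores RNA and protein for the first divisions of the embryo. As the oocyte completes growth, its chromatin condenses around the nucleolus and transcription stops, and the RNA that remains is what had been stored. From then on a transcript that is degraded is not replaced.

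Total counts ranged from 1886716 to 2983344 in NSN oocytes, from 1358383 to 3647827 in SN oocytes and were 2163635 in D-15. Of 17 oocyte markers, the 4 that could be matched to a transcript (Zp3, Oosp1, Oosp3 and Nobox) had at least 438 reads each in every one of the 26 oocytes. Of 14 markers of cumulus and granulosa cells only Amh, a hormone of granulosa cells, could be matched, and none of the markers of theca, blood or endothelium. Amh had 31 reads in the NSN oocyte C-8, 0 to 8 in the other NSN oocytes, 10 in the SN oocyte C-9 and 0 to 2 in the other SN oocytes. Its symbol came from the study's list of transcripts missing from SN oocytes. The difference of Amh between NSN and SN oocytes was thus selected on these samples, and nothing is read from it. In CPM, 11 of the 73 transcripts described here had their highest NSN value in C-8 and 10 their highest SN value in C-9, against 20 in the NSN oocyte D-14 and 16 in the SN oocyte D-28, and the part of reads from other cells in these values was not tested.

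The 73 transcripts were sparse even in NSN oocytes. Their mean over the 9 NSN oocytes ranged from 0.543 to 7.16 counts per 1e6 counts of the library (CPM) with a median of 1.83, which is a mean of 1.44 to 18.9 reads per oocyte. CPM was not divided by transcript length, so an order by CPM is an order of reads and not of molecules. For 49 of the 73 the lowest NSN count was a single read. In SN oocytes their mean ranged from 0 to 0.822 CPM with a median of 0.283.

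The share of transcripts that met the rule was smaller at higher read levels in NSN oocytes. Among the 14801 transcripts with a count in all 9 NSN oocytes, 9 of the 59 with a mean of up to 1 CPM belonged to the set (15.3%). The share was 32 of 680 (4.71%) between 1 and 2 CPM, 22 of 1648 (1.33%) between 2 and 4 CPM and 10 of 2158 (0.463%) between 4 and 8 CPM. None of the 10256 transcripts above 8 CPM belonged to it, and 10147 of these had a count in all 16 SN oocytes as well.

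**Figure D1:**
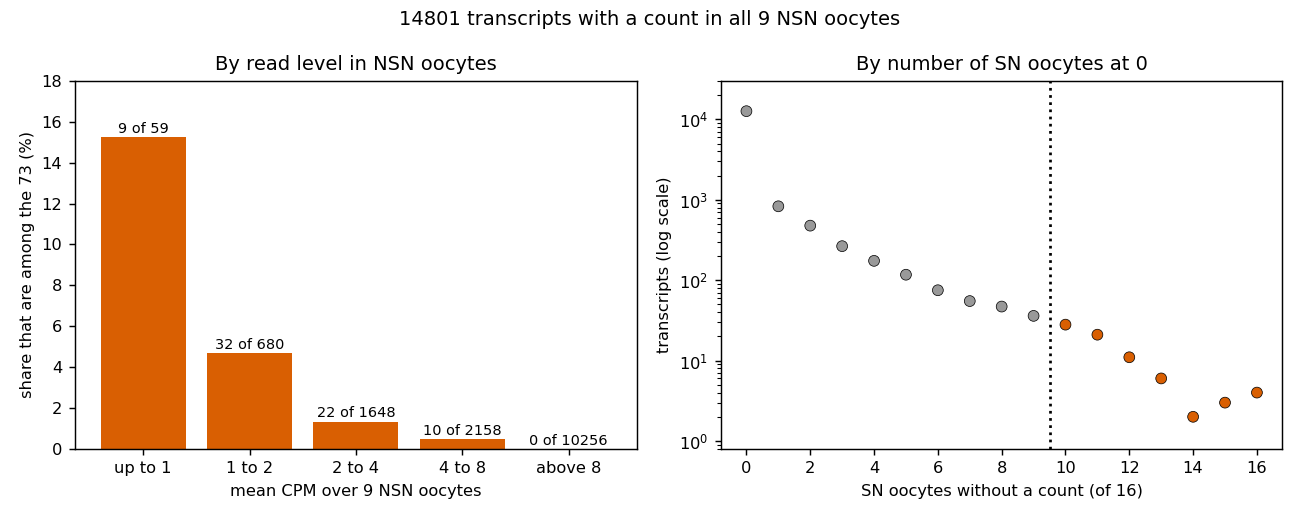
Left, the share of transcripts (%) that belong to the 73, by mean CPM over the 9 NSN oocytes, with the counts above each bar: the share goes from 15.3% up to 1 CPM to none above 8 CPM. Right, the number of transcripts (log scale) by the number of SN oocytes without a count; 12650 of the 14801 had a count in every SN oocyte, and the orange points right of the dotted line are those that met the rule, the 2 left out included.

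Depth limits what a zero means at this level. At its mean NSN CPM, a member of the set would give 0.738 to 9.73 reads in the smallest SN library, and for 46 of the 73 this is under 3 reads, the number that a count of 0 still allows. Summed over all 16 SN libraries the same level would give 19.7 to 260 reads (median 66.6), against 0 to 31 reads counted (median 11). The rule selected transcripts with zeros in SN oocytes, so it fixes the direction of this difference and nothing is read from it. In the smallest SN library a zero of most of these transcripts is within counting error. The reads carry no molecular identifiers, so such limits cover counting error only.

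There was no gap at the threshold of the rule, and membership depended on depth. With all libraries drawn down to the total of the smallest, a median of 25.5 of the 73 still met the rule over 20 draws. Without the 3 SN oocytes with the fewest counts, 54 of the 73 met a rule that asks for a 0 in 8 or more of the other 13 (61.5%, against 62.5% in the rule used), and 34 met one that asks for 9 or more (69.2%). Of the set, 28 transcripts were at 0 in exactly 10 SN oocytes, 21 in 11, 11 in 12, 6 in 13, 1 in 14, 2 in 15 and 4 in all 16, and another 36 transcripts fell just short with 9. Just inside were Emx2os, an antisense RNA of the Emx2 locus (1.58 CPM in NSN and 0.593 CPM in SN oocytes on average), Rab30, a GTPase of the Golgi (1.43 and 0.533 CPM), and TCONS_00081553, which has no symbol (6.90 and 0.512 CPM). Just outside were TCONS_00101119 (2.05 and 0.206 CPM), TCONS_00067051 (2.14 and 0.215 CPM) and TCONS_00032201 (0.759 and 0.273 CPM). The 3 inside were named for the highest SN means among the 28 transcripts, and the 3 outside for the lowest among the 36. The lower SN means outside follow from that choice, and nothing is read from them.

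**Figure D2:**
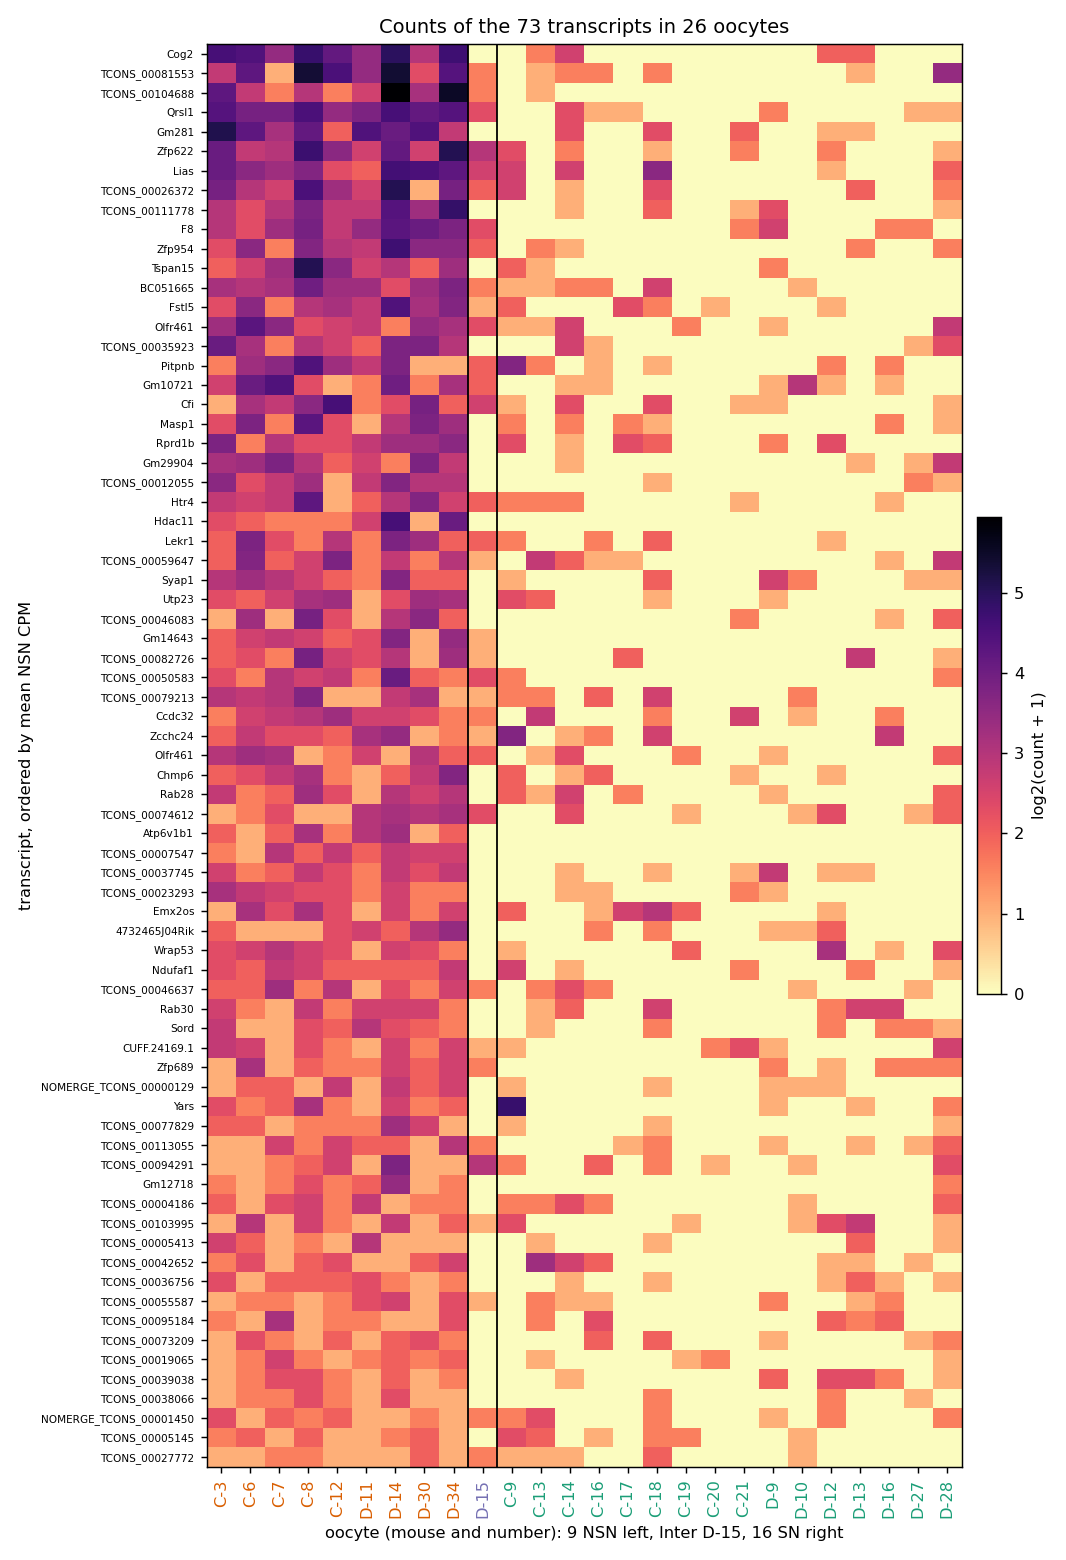
Counts of the 73 transcripts (rows, ordered by mean NSN CPM) in the 26 oocytes (columns), as log2(count + 1), where the palest colour is 0. The 9 NSN columns are filled by the rule, and the SN columns hold scattered reads, most of all in D-28 with 39 of 73 transcripts and least in C-20 with 4.

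Cog2 had the most reads relative to depth in NSN oocytes. It encodes a subunit of the conserved oligomeric Golgi complex, which tethers vesicles at the Golgi, and the gene lies on chromosome 8 of GRCm38, from 124520767 to 124552008 on the plus strand (all gene positions are those of the GENCODE M21 annotation for the symbol, since the spans of the counted transcripts were not used here). Its NSN counts were 7 at the lowest, 21 at the median and 30 at the highest, a mean of 7.16 ± 2.97 CPM (SD, n = 9). Of the SN oocytes, C-14 had 5 reads, D-12 and D-13 had 3 each and C-13 had 2, and the other 12 had none. All 9 NSN oocytes were above every SN oocyte in CPM, and the pooled level was 20.04-fold lower in SN.

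Qrsl1 was the most even of the leading transcripts among NSN oocytes. It encodes a subunit of the amidotransferase that makes glutaminyl-tRNA in mitochondria (chromosome 10, 43874188 to 43901745, minus strand). Its NSN counts ran from 10 through a median of 17 to 23, or 6.47 ± 1.55 CPM (SD, n = 9). In SN oocytes C-14 had 4 reads, D-9 had 2, and C-16, C-17, D-27 and D-28 had 1 each. The groups did not overlap, and the pooled level was 23.5-fold lower in SN oocytes.

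Groups that did not overlap were uncommon even in this set. For 9 of the 73 transcripts every NSN oocyte was above every SN oocyte in CPM, and among the 14801 transcripts with a count in all NSN oocytes the share was 0.48%. Since the rule used this contrast, nothing is read from the count. Beside Cog2, Qrsl1 and the 4 transcripts without an SN read these were Zfp622, TCONS_00104688 and TCONS_00111778. At the other end, for 30 of the 73 at least 1 SN oocyte exceeded the NSN mean.

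Zfp622 encodes a zinc finger protein of large ribosomal subunit maturation (chromosome 15, 25984366 to 25998481, plus strand). Its NSN counts were 5, 11 and 33 at the lowest, median and highest, a mean of 5.21 ± 3.53 CPM (SD, n = 9). Among SN oocytes C-9 had 4 reads, C-14, C-21 and D-12 had 2 each, and C-18 and D-28 had 1.

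Lias, the mitochondrial lipoic acid synthetase (chromosome 5, 65391497 to 65410693, plus strand), overlapped between the groups. Its NSN counts were 3, 12 and 24 at the lowest, median and highest (4.94 ± 2.77 CPM, SD, n = 9). The SN oocyte C-18 had 11 reads, C-9 and C-14 had 5 each, D-28 had 3 and D-12 had 1, and 3 SN oocytes reached the lowest NSN level in CPM. Another gene overlaps Lias on each strand, as another gene overlaps 15 of the 32 named transcripts' genes (Hdac11, F8, Rprd1b, Utp23 and Yars among them). Whether the counting used strand is not stated, so reads of such neighbours cannot be told apart.

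F8, which encodes coagulation factor VIII (chromosome X, 75172715 to 75382615, minus strand), was counted at 4, 10 and 19 reads at the lowest, median and highest in NSN oocytes, 4.19 ± 1.95 CPM (SD, n = 9). In SN oocytes D-9 had 5 reads and C-21, D-16 and D-27 had 2 each. A different transcript with the same symbol, TCONS_00112119, is not in the set: it had 0 to 10 reads in NSN oocytes and was at 0 in only 5 SN oocytes.

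Zfp954, a zinc finger gene on chromosome 7 (7114690 to 7121488, minus strand), had 2, 11 and 25 reads at the lowest, median and highest in NSN oocytes, 3.82 ± 2.59 CPM (SD, n = 9). The SN oocytes C-13, D-13 and D-28 had 2 reads each and C-14 had 1. Zinc finger genes have close relatives, so reads shared between copies make this value less certain.

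Tspan15 and BC051665 differed in how even they were. Tspan15 encodes a tetraspanin that accompanies the protease ADAM10 (chromosome 10, 62185396 to 62231251, minus strand), and its 33 reads in C-8 stood over 3 to 11 reads in the other NSN oocytes. In SN oocytes it had 3 reads in C-9, 2 in D-9 and 1 in C-13. BC051665 (chromosome 13, 60781887 to 60786364, minus strand) had 4, 9 and 15 reads at the lowest, median and highest in NSN oocytes (3.49 ± 1.19 CPM, SD, n = 9), and in SN oocytes 5 reads in C-18, 2 each in C-14 and C-16, and 1 each in C-9, C-13 and D-10.

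Of the transcripts without an informative symbol, TCONS_00104688 had the widest range among NSN oocytes. It had 61 reads in D-14, 45 in D-34 and 18 in C-3, and 2 to 8 in the other 6, a mean of 6.54 ± 8.22 CPM (SD, n = 9). The SN oocytes together held 1 read, in C-13, so the pooled level was 236-fold lower with a counting interval of 41.7 to 9383 (95%, exact conditional binomial). TCONS_00081553 ran from 1 to 41 reads in NSN oocytes (median 18), and 10 of its 18 SN reads were in D-28. Gm281 had 3, 17 and 34 reads at the lowest, median and highest in NSN oocytes, and in SN oocytes 4 reads each in C-14 and C-18, 3 in C-21 and 1 each in D-12 and D-13.

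Only 4 of the 73 transcripts had no read in any SN oocyte. Hdac11 encodes a histone deacetylase (chromosome 6, 91156665 to 91174692, plus strand). Its NSN counts were 23 in D-14 and 16 in D-34, and 1 to 5 in the other 7, with a median of 3 and a mean of 2.53 ± 3.0 CPM (SD, n = 9). Against the limit of 3 reads over all 16 SN libraries, its pooled level was at least 29.6-fold lower in SN oocytes. Atp6v1b1 encodes a subunit of the proton pump that acidifies vesicles (chromosome 6, 83742990 to 83758855, plus strand). It had 9 reads in D-14, 8 in C-8, 7 in D-11 and 1 to 3 in the other NSN oocytes, at least 18.9-fold lower in SN oocytes.

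The other two were not protein-coding genes with a known role. Gm14643, annotated as a processed transcript on chromosome X (39870500 to 40475561, plus strand), had 1, 5 and 12 reads at the lowest, median and highest in NSN oocytes through TCONS_00111506, at least 25.04-fold lower in SN. A second transcript of Gm14643, TCONS_00111497, had 3 to 41 reads in NSN oocytes, was at 0 in 7 SN oocytes only and had at most 4 reads in an SN oocyte. TCONS_00007547, without a symbol, had 1, 5 and 7 reads at the lowest, median and highest, at least 19.4-fold lower. In the Inter oocyte 1 read of Gm14643 was counted and none of the other 3. Gm12718, with 2 SN reads, both in D-28, was 20.7-fold lower (counting interval 5.20 to 180), and TCONS_00077829, with 3, was 14.3-fold lower (4.42 to 73.5).

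**Figure D3:**
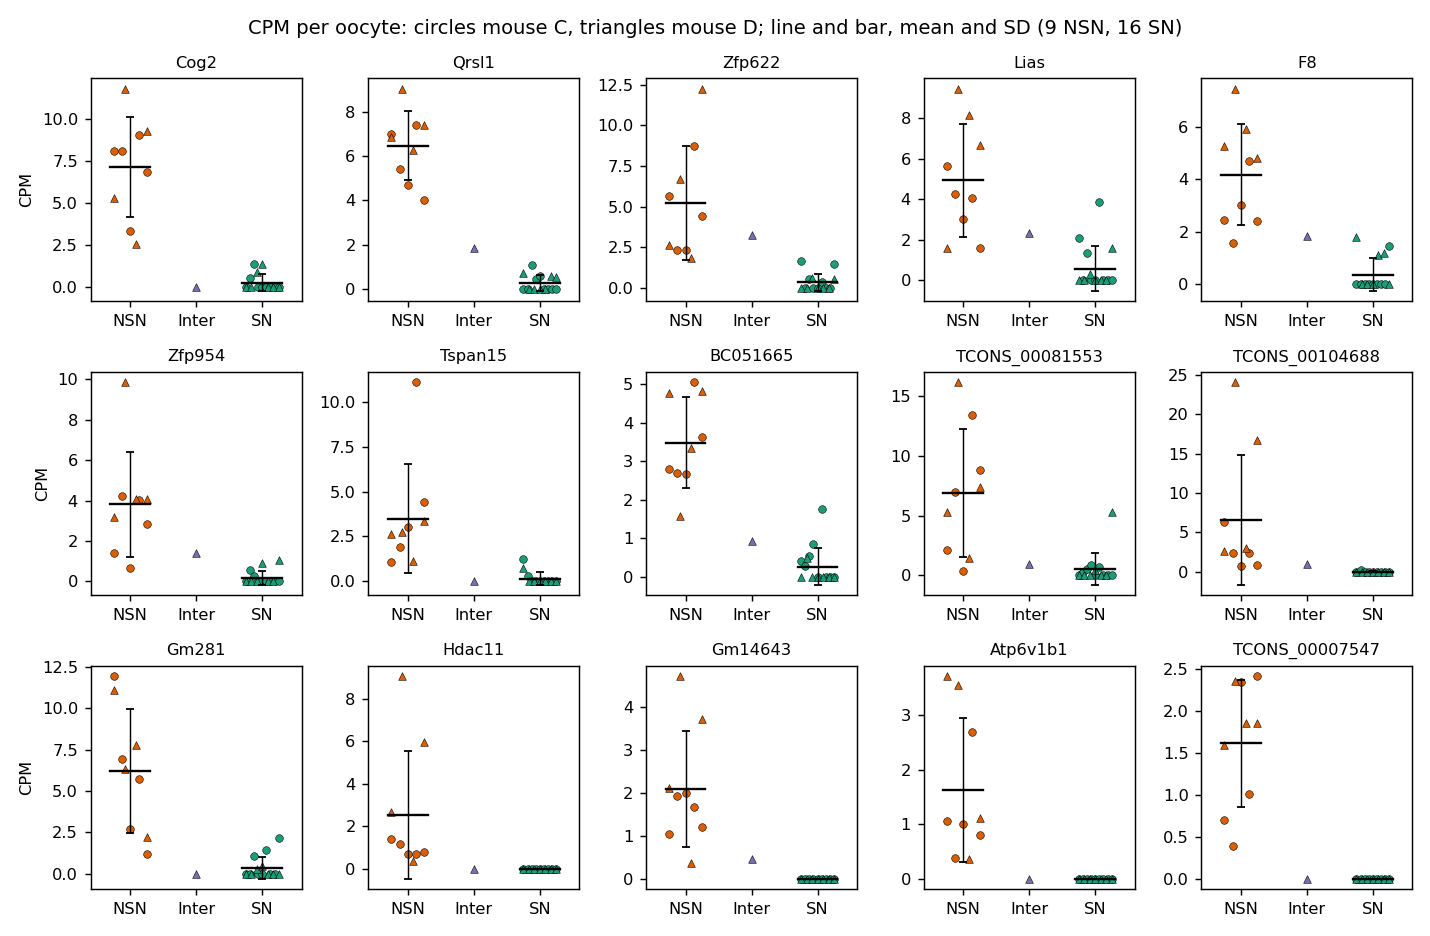
CPM per oocyte of 15 of the 73 transcripts in NSN (orange), Inter (purple) and SN oocytes (green), circles for mouse C and triangles for mouse D, with the mean and SD of the 9 NSN and the 16 SN oocytes. Cog2 and Qrsl1 do not overlap between NSN and SN, Lias and TCONS_00081553 do through 1 or a few SN oocytes, and Hdac11, Gm14643, Atp6v1b1 and TCONS_00007547 are at 0 in every SN oocyte.

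The promoters of 4 of these genes are printed because they carry the clearest cases, Cog2 and Qrsl1 with the most reads and Hdac11 and Atp6v1b1 without an SN read. Each is the stretch from 250 bases before to 50 bases after the start in RefSeq (build GRCm38.p6), 5′ to 3′ on the gene's strand, with CpG dinucleotides in capitals. The start of the counted transcript in the oocyte can be a different one.
Cog2, chr8:124520517-124520816, plus strand: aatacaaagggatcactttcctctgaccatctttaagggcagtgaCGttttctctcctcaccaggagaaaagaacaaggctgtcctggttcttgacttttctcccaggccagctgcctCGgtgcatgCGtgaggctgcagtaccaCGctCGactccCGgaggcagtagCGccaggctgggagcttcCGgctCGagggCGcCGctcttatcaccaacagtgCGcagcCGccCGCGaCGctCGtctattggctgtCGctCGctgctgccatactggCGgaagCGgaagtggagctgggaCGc
Qrsl1, chr10:43901687-43901986, minus strand: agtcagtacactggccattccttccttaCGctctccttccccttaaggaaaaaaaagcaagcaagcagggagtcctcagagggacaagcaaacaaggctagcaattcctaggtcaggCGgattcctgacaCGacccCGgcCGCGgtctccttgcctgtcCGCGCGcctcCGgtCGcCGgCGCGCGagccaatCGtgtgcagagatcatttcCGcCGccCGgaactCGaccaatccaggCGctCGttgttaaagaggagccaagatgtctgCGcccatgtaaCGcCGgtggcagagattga
Hdac11, chr6:91156565-91156864, plus strand: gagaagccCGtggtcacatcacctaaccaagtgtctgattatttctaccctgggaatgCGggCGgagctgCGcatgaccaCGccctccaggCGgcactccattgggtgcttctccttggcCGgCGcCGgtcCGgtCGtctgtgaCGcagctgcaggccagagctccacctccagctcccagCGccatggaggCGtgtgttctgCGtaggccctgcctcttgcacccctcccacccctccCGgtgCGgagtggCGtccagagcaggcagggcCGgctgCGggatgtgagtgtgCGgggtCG
Atp6v1b1, chr6:83742767-83743066, plus strand: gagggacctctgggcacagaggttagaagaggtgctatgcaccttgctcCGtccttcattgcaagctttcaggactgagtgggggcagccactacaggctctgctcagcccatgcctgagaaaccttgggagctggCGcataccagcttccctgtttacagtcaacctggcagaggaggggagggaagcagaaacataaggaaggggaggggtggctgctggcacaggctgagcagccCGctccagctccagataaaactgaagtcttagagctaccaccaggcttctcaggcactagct
Cog2 and Hdac11 had 22 CpG sites in these 300 bases and Qrsl1 had 25, and Atp6v1b1 had 3. The 2 named genes without an SN read thus differed in this respect, with a ratio of observed to expected CpG of 0.660 for Hdac11 and 0.122 for Atp6v1b1.

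RefSeq promoters were at hand for 25 of the named genes of the set, 28 windows in all. The ratio of observed to expected CpG was above 0.6 in 18 of the 28 (64.3%) and in 35.8% of all 32851 promoters, with medians of 0.692 and 0.384, and the median GC content was 57.3% and 52.7%. By RefSeq gene type, 25 of the 28 windows and 64.7% of all promoters belong to protein-coding genes. Among protein-coding genes alone the ratio was above 0.6 in 18 of 25 windows (72%) and in 47.6% of 21262 promoters, with medians of 0.698 and 0.567, so the gap to the full table was smaller there. The TATA-like motif TATAAA stood on either strand in 2 of the 28 (7.14%), the windows of BC051665 and Fstl5, and in 13.6% of all promoters. The homeodomain-type motif TAATTG stood in none of the 28 and in 8.0% of all promoters. The comparison was with all promoters and not with those of transcripts in every NSN oocyte, from which the set was drawn. The CpG values and motif matches therefore describe the windows only.

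By symbol, 32 of the 73 transcripts carried an informative name, of 31 genes, because 2 transcripts carried Olfr461. A further 5 had a Gm number, 1 a Rik name and 18 were listed without a symbol. The other 17 were not found in the study's list of SN-missing transcripts, although they meet the criterion stated for it, and so have no symbol here. The 38 transcripts whose symbol was found in the annotation came from 33 protein-coding, 3 lincRNA, 1 antisense and 1 processed transcript entries. Their genes were spread over 17 chromosomes with at most 4 on one, chromosome 2, and the closest pair, Ccdc32 and Ndufaf1, was 626 kb apart. Of the 14801 transcripts in every NSN oocyte 96.2% had a merged-assembly identifier (TCONS), and 67 of the 73 (91.8%) did.

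The named genes are grouped below by role, with lists drawn from the symbols that the study itself found missing from SN oocytes. The lists were chosen on these samples, and their direction is therefore no independent evidence. The share of each list in the set was not compared with that of all symbols the study found missing. No role is therefore read as more or less frequent in the set. Over all transcripts tested for NSN against SN with edgeR's quasi-likelihood test, 1345 of 16657 were lower in SN at an adjusted p below 0.05, or 8.07%. Only 29 of the 73 passed the filter on low counts, 3 counts in 9 oocytes, which for this set mostly means through the NSN oocytes, and 25 of these 29 were lower. With all transcripts that had a read, 56 of the 73 were called lower, against 7.11% of the transcripts tested. The rule fixes that direction, and the counts are given for completeness.

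RNA processing, tRNA and ribosome biogenesis gave 5 of its 14 genes to the set. Beside Qrsl1 they were Rprd1b, which binds the tail of RNA polymerase II, Utp23, a factor of the small ribosomal subunit processome, Wrap53, a factor of Cajal bodies and telomerase, and Yars, the cytoplasmic tyrosyl-tRNA synthetase. Rprd1b (chromosome 2, 158028497 to 158132297) had 2, 7 and 13 reads at the lowest, median and highest in NSN oocytes, and in SN oocytes 4 reads each in C-9, C-17 and D-12, 3 in C-18, 2 in D-9 and 1 in C-14. Utp23 (chromosome 15, 51877429 to 51884614) had 1, 5 and 9 reads in NSN oocytes, and in SN oocytes 4 in C-9, 3 in C-13 and 1 each in C-18 and D-9. Of the 7 tested genes of this list that are not in the set, 6 were lower in SN and none was higher.

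Yars was the member of the set whose SN and NSN means differed least as a ratio. Its NSN counts were 1, 3 and 8 at the lowest, median and highest (1.23 CPM on average), and the SN mean was 0.822 CPM. Of its 31 SN reads, 27 were in C-9, 2 in D-28 and 1 each in D-9 and D-13. The SN mean of Yars therefore rests on 1 oocyte. C-9 was also the SN oocyte with the most Amh reads, and a link between them was not tested.

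Vesicle traffic and lysosome gave 5 of its 13 genes. Beside Cog2 and Atp6v1b1 they were Chmp6, a component of ESCRT-III that bends membranes away from the cytosol, and the small GTPases Rab28 and Rab30. Chmp6 (chromosome 11, 119913441 to 119919548) had 1, 4 and 12 reads at the lowest, median and highest in NSN oocytes, and in SN oocytes 3 each in C-9 and C-16 and 1 each in C-14, C-21 and D-12. Rab28 (chromosome 5, 41624976 to 41708157) had 1, 5 and 9 reads in NSN oocytes, and in SN oocytes 5 in C-14, 3 each in C-9 and D-28, 2 in C-17 and 1 each in C-13 and D-9. For both genes NSN and SN oocytes overlapped in CPM. Of the 7 tested genes of this list outside the set, 2 were lower and none higher.

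Mitochondrial genes gave 2 of 10 (Qrsl1, whose enzyme also works in mitochondria, was counted with RNA processing), Lias and Ndufaf1, an assembly factor of respiratory complex I (chromosome 2, 119655446 to 119662827). Ndufaf1 was low and even in NSN oocytes, with 3 to 6 reads and a mean of 1.51 ± 0.403 CPM (SD, n = 9), and in SN oocytes it had 5 reads in C-9, 2 each in C-21 and D-13 and 1 each in C-14 and D-28. Transcription and chromatin factors gave 4 of 20, Zfp622, Zfp954, Hdac11 and Zfp689, where Zfp622 is listed for its zinc finger although its known role is in ribosome maturation. Of the tested genes outside the set, 2 of 3 mitochondrial and 5 of 10 transcription or chromatin genes were lower and none was higher.

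The remaining lists gave 1 gene each or none. Metabolism gave Sord, sorbitol dehydrogenase (chromosome 2, 122234749 to 122265340), with 1, 3 and 7 reads at the lowest, median and highest in NSN oocytes and 2 reads each in C-18, D-12, D-16 and D-27 and 1 each in C-13 and D-28 among SN oocytes. The ion channel, receptor and synaptic list gave Htr4, a serotonin receptor (chromosome 18, 62324204 to 62496577), with 1, 6 and 18 reads in NSN oocytes, the 18 in C-8, and 2 reads each in C-9, C-13 and C-14 and 1 each in C-21 and D-16 among SN oocytes. The germ cell list gave Gm281, and glycosylation and extracellular matrix gave none of its 9 genes. Tested genes outside the set were lower in 3 of 6 (glycosylation), 2 of 7 (metabolism), 2 of 5 (channels and receptors) and 2 of 2 (germ cell) cases, and none was higher.

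The other named transcripts belonged to none of these lists. Fstl5, a secreted follistatin-like protein, Cfi and Masp1, serine proteases of the complement system, and Pitpnb, a phosphatidylinositol transfer protein, had NSN means of 2.95 to 3.42 CPM. Lekr1, Syap1, Ccdc32 and Zcchc24 had NSN means of 1.84 to 2.39 CPM. Pitpnb and Zcchc24 each had 12 of their SN reads in C-9, of 20 and 26. The symbol Olfr461, an olfactory receptor, was carried by TCONS_00084369 (2 to 19 reads in NSN oocytes) and TCONS_00087042 (1 to 9), both with SN reads mainly in C-14 and D-28, and reads may be shared between them. Gm10721 (chromosome 9, 3013140 to 3014344) has near-identical copies beside it, which makes its count uncertain.

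The rule fixed how many SN oocytes lack each transcript, not which ones, and the SN oocytes differed widely. Transcripts of the set with at least 1 read numbered 4 in C-20, 8 in C-19 and 9 in C-17, and 35 in C-14, 35 in C-18 and 39 in D-28, with a median of 20.5 over the 16 SN oocytes. Their summed level ranged from 4.41 CPM in C-20 to 52.3 CPM in D-28 and 52.6 CPM in C-9, against 120 to 280 CPM in NSN oocytes. C-9 and D-28 held more than any of the other 14 SN oocytes, which reached at most 34.3 CPM. The 2 mice did not separate: SN oocytes had 4 to 35 of the transcripts in mouse C and 14 to 39 in mouse D.

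Depth went along with the number detected. Across the 16 SN oocytes, total counts and transcripts detected had a Pearson's r of 0.691 and a Spearman's rho of 0.809 (0.853 and 0.904 in the 9 oocytes of mouse C, 0.252 and 0.523 in the 7 of mouse D), and r was 0.658 without the 2 oocytes farthest in depth. D-28 went against this, with the most transcripts at only 1873899 counts. Brought to the total of the smallest library, the expected number was 4.0 in C-20, 15.2 at the median, 27 in C-9 and 33.8 in D-28, against 60.2 to 67.6 in NSN oocytes. At equal depth D-28 and C-9 were the 2 highest SN oocytes. At that depth r with total counts was 0.396 and rho 0.697 over the 16 SN oocytes, 0.658 and 0.767 in mouse C, and -0.112 and 0.429 in mouse D. Without D-28, r was 0.615 and rho 0.804.

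**Figure D4:**
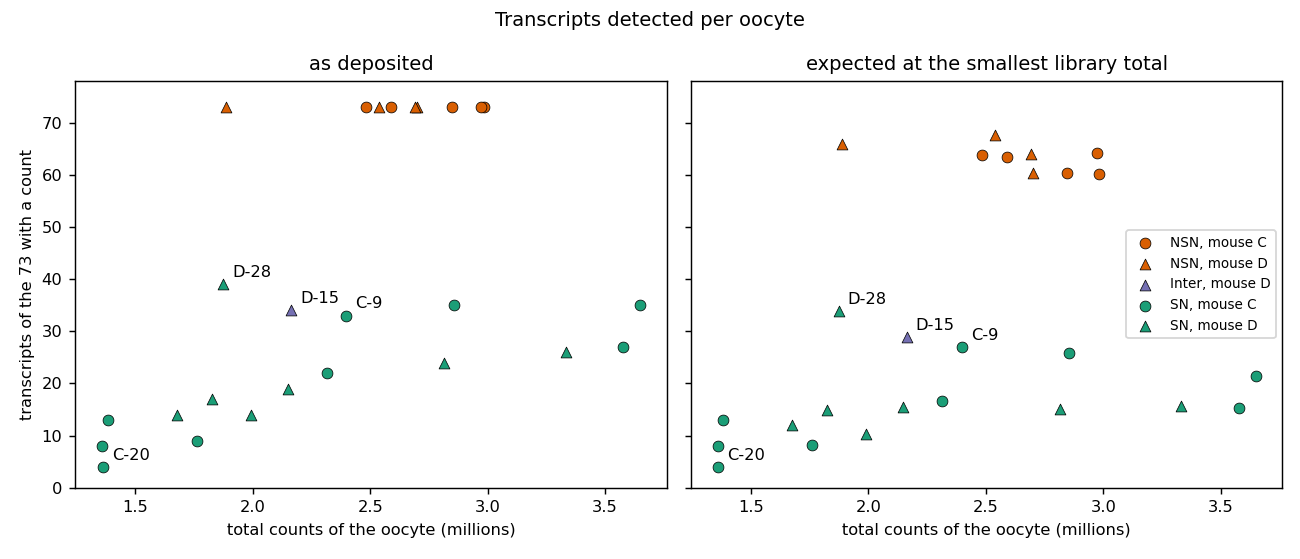
Transcripts of the 73 with a count in each oocyte against its total counts (in units of 1e6), as deposited (left) and expected at the smallest library total (right), by stage and mouse. NSN oocytes are at 73 on the left by the rule; among SN oocytes D-28 is highest with 39 and C-20 lowest with 4, and the Inter oocyte D-15 has 34.

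The oocytes that kept reads of the set also had more of other transcripts that were lower in SN. These were 602 transcripts outside the set that edgeR called lower with a log2 fold change below -1, and their mean log2 CPM was 0.677 in C-20, 0.955 at the median of SN oocytes, 1.60 in C-9 and 1.66 in D-28, against 2.29 to 3.17 in NSN oocytes. Across the 16 SN oocytes the summed CPM of the set and this mean had a Pearson's r of 0.903 and a Spearman's rho of 0.750 (0.899 and 0.783 in mouse C, 0.918 and 0.714 in mouse D). Without D-28 and C-9, the 2 oocytes farthest from the median, r was 0.608. Both measures come from the same library and both sets were chosen on the contrast of stages, so the relation is a description.

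**Figure D5:**
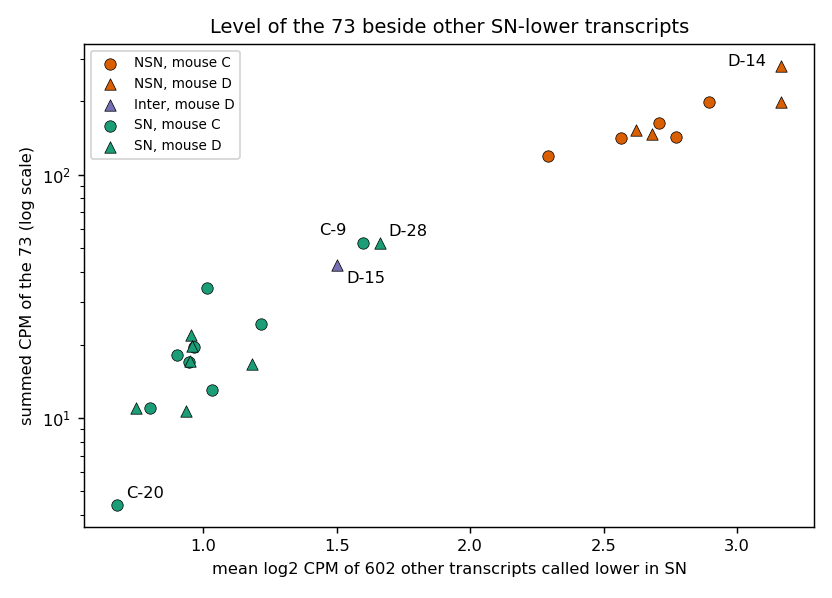
Summed CPM of the 73 transcripts (log scale) against the mean log2 CPM of 602 other transcripts called lower in SN, for all 26 oocytes. The Inter oocyte D-15 at 42.5 CPM lies beside the SN oocytes C-9 and D-28, between the other 14 SN oocytes, at most 34.3 CPM, and the NSN oocytes, at least 120 CPM.

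The Inter oocyte D-15 was not used by the rule. The rule selected zeros in the SN oocytes and reads in the NSN oocytes, so an oocyte outside it would tend to fall between. The ranks of D-15 are therefore a description. It had a read of 34 of the 73 transcripts (46.6%), more than 13 of the 16 SN oocytes, and at least 2 reads of 25 of them. Its summed level was 42.5 CPM, above 14 of the 16 SN oocytes and below every NSN oocyte. At the smallest depth it was expected to show 28.9 of the transcripts, above 15 of the 16. For 30 of the 73 it reached the lowest NSN level in CPM, and for 12 it exceeded every SN oocyte, among them Zfp622 with 7 reads and Qrsl1 with 4. The lowest NSN count was a single read for 49 of the 73, so few reads were enough to reach that level. The same counts over all transcripts were not taken, so nothing is read from the 30 and the 12. Cog2, Gm281, Tspan15, Hdac11 and Atp6v1b1 had no read in it. A single oocyte allows no test, and its place rests on this 1 library.

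The mouse was not part of the rule, but the rule asked for a read in every NSN oocyte of both mice. A transcript without reads in the NSN oocytes of a mouse was thus left out beforehand. For the set, the tests between mice therefore cover differences in level only. Within the NSN oocytes, edgeR called 0 of 17145 transcripts between mouse C and mouse D (0%; 1046 at an unadjusted p below 0.05), and DESeq2 called 10, none of the set. Of the 73, 62 were tested, and 6 had an unadjusted p below 0.05, all higher in mouse D. The largest difference among named genes was that of Hdac11, with a log2 difference of 2.19 ± 0.70 (SE, adjusted p = 0.70). Its reads in mouse D were 1, 5, 16 and 23, and in mouse C 2, 2, 2, 3 and 4, so the mice overlapped. TCONS_00104688 gave 2.18 ± 0.65 (SE, adjusted p = 0.70). Without the filter on low counts, edgeR called 75 transcripts and TCONS_00104688 was the only member among them (adjusted p = 0.0014, log2 difference 2.19), with 3 of 4 oocytes of mouse D at 8 reads or more and 1 of 5 of mouse C.

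No stage difference was called as different between the mice. edgeR's interaction test called 0 of 16657 transcripts (0%; 994 at an unadjusted p below 0.05), as did DESeq2. The 29 members tested passed the filter on low counts mostly through their NSN oocytes, and their SN values are few reads. No difference between the mice is therefore read from them. Of these 29, 5 had an unadjusted p below 0.05. The estimated difference was larger in mouse D for Fstl5, Lias, BC051665 and Emx2os and larger in mouse C for Gm29904. Lias, for example, had SN reads of 5, 5 and 11 in 3 oocytes of mouse C and of 1 and 3 in 2 oocytes of mouse D, with an interaction of -2.52 ± 1.17 (SE, adjusted p = 0.82). Within the SN oocytes no member passed the filter on low counts, and no transcript was called between the mice (1717 at an unadjusted p below 0.05).

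With the stages exchanged, a count was required in all 16 SN oocytes and a 0 in 6 or more of the 9 NSN oocytes. No transcript was found. This asks for a read in 16 libraries, the smallest of 1358383 counts, where the rule asks for 9, the smallest of 1886716 counts. For transcripts of few reads it is harder to meet, so nothing is read from the absence. Of the 12862 transcripts with a count in every SN oocyte, the most NSN oocytes at 0 for any of them was 4.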

How the data were processed

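Single GV oocytes of 2 mice were sequenced as polyadenylated RNA. Per the labels and the study's methods, the authors trimmed reads with Trim Galore, aligned them to GRCm38 with HISAT2 2.1.0 and, with SeqMonk, obtained counts for the transcripts of an earlier oocyte assembly. They deposited raw counts per transcript, without normalisation. Whether strand was used is not given in the sources used here. Their table of DESeq2 fold changes and p-values was not used. All 26 sample columns were used (0 left over), no 2 libraries were identical, and groups were taken from the labels.

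The members and lists were chosen with earlier results of these data known. CPM is the count over the total count of the oocyte. The mean log2 CPM of the 602 other SN-lower transcripts instead used totals scaled by TMM, with 0.5 added to each count. Stage, mouse and their interaction were tested by quasi-likelihood in edgeR 4.0.16 under R 4.3.3, after TMM scaling, with Benjamini-Hochberg adjustment over all transcripts tested, at 0.05, after filters of 3 counts in at least 9 oocytes (stage, interaction), 4 NSN oocytes or 7 SN oocytes (mouse). D-15 was left out of the tests. p-values measure the spread between oocytes of 2 mice. DESeq2 1.42.0 was an alternative, and further alternatives concerned scaling, filters, the thresholds of the rule and depth (draws without replacement to 1358383 counts). A count of 0 allows 3 reads, and folds against 16 SN oocytes without a read use 3 reads over all of them. The tests were checked on simulated data, with changes placed only in transcripts with more reads than most of the set had. Power at the read level of the set was not checked. Values used Python 3.11.15, numpy 2.4.6, pandas 2.3.3 and scipy 1.17.1.

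All members with a symbol other than a Gm number or Rik name are named. The lowest, median and highest NSN counts and the SN oocytes with reads are given for the 8 of these and the 3 others with the highest mean NSN CPM, for members without an SN read and for up to 3 members of each list. Yars, Pitpnb, Zcchc24, Olfr461 and the counts of Gm12718 and TCONS_00077829 were added after their values were seen, as were the within-mouse stage tests and the 602 other SN-lower transcripts. Symbols came from the study's list of SN-missing transcripts, those of the 4 oocyte markers from its list of classifier transcripts, gene positions from GENCODE M21 and promoters from RefSeq, both on GRCm38.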

Additional observations from a re-analysis of the deposited data

Results flagged for a closer look

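Of 27 groups of values, 4 had an oocyte far from the others by the ratio of its gap to the range. The cutoff flags about 1 in 20 by chance where values are normally distributed and groups independent. These groups are low counts and share oocytes, so the 4 are not compared with that rate. The summed level of the 73 transcripts was 279.7 CPM in the NSN oocyte D-14, against 199.6 CPM in the next, and D-14 had the highest NSN value of 20 of the 73 transcripts. In the SN oocytes of mouse D it was 52.3 CPM in D-28, against 21.9 CPM in the next of 7. Zfp954 was at 9.85 CPM in D-14, against 4.25 CPM in the next NSN oocyte. Tspan15 was at 11.1 CPM in C-8, the NSN oocyte with the most Amh reads, against 4.43 CPM in the next. A link of this value to Amh was not tested.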

How the results depend on the processing

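How many transcripts met the rule depended on its thresholds: 227 with at most 1 count taken as absent, 109 with a 0 in 9 or more SN oocytes, 45 with 11 or more, and 24 with at least 2 counts in every NSN oocyte, against 73. Without the 3 SN oocytes with the fewest counts (added after seeing the data), 54 of the 73 met it with a 0 in 8 or more of the other 13 (61.5%) and 34 with 9 or more (69.2%, a stricter share than the 62.5% of the rule). Within mouse C alone 53 and within mouse D alone 50 of the 73 did, of 208 and 232 transcripts that met the rule in these fewer oocytes. Here a 0 was required in 66.7% of the SN oocytes of mouse C and 71.4% of those of mouse D. Both are stricter shares than the 62.5% of the rule. After drawing all libraries down to the smallest, 53 transcripts met the rule (median of 20 draws, 48 to 63), of which 25.5 were among the 73; the rest were transcripts outside the set.

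Between stages, 2162 to 2705 transcripts were called in all under the alternatives planned, mouse as a block included (2254), against 2244, and 750 and 725 within mouse C and mouse D, where fewer oocytes were tested. Between the mice within NSN oocytes DESeq2 called 10 and edgeR without a filter 75, against 0, and leaving out each NSN oocyte in turn gave 0 to 1, the 1 without C-6. Within SN oocytes edgeR without a filter called 28, none of the 73, against 0. The interaction stayed at 0 with library-size scaling and DESeq2. The Inter oocyte had at least 2 reads of 25 transcripts, against 34 with 1 read, and the SN median was 15 after drawing down, 11 with at least 2 reads and 18 without D-28 and C-9, against 20.5. The rule in the other direction found 0 to 1 transcripts in the draws. The comparison with neighbouring transcripts and its alternatives was not run, since transcript positions were not used here.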
